A study of Homo sapiens with 9 samples.

Results

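The 184 genes described here are the symbols made of LINC and a number that had at least 90 counts summed over the 9 libraries of the series. They are 184 of 878 such symbols among the 26364 genes counted. Of the others, 390 had 1 to 89 counts and 304 had none. The threshold used the measured counts, so the level of these genes is a description and not a finding. LINC00615, LINC00622 and LINC00271 stood just inside it with 90 counts each, and LINC01121 with 83, LINC00969 with 82 and LINC00571 with 82 stood just outside.

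The RNA came from MDA-MB-231, an established line from a human triple-negative breast adenocarcinoma. All cells carried a pLVX lentivirus and were grown for 48 h in DMEM with 10% FBS. The 3 empty vector libraries are the controls, 3 libraries came from cells stably expressing wild-type MEL-18 (MEL-18 WT), and 3 from cells expressing MEL-18 T334A, a mutant with alanine in place of a threonine that can be phosphorylated. MEL-18 is the product of PCGF2, a subunit of a chromatin complex of the Polycomb group. The libraries of a group are labelled as biological replicates. Whether they came from separate infections or clones is not given in the sources used here, so a line and its construct cannot be told apart. PCGF2 itself had 22.7 CPM (counts per 1e6 counts of the scaled library) on average with the vector, 1286 with MEL-18 WT and 1420 with MEL-18 T334A, which checks the labels for overexpression but not the mutation.

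LINC is a placeholder name for a long intergenic noncoding RNA, a transcript of a gene that lies between protein-coding genes and holds no long reading frame. Such RNAs are usually spliced and polyadenylated like messenger RNAs, tend to be less abundant and more restricted to certain cell types, and include scaffolds and decoys for proteins, regulators of a neighbouring gene and host transcripts of small RNAs. The class is defined by what it lacks, so it is not a pathway. Some of its genes were later found to encode small proteins, and others received a functional name, such as NORAD for LINC00657.

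RefSeq listed 182 of the 184 symbols, 38 of them under another current symbol. It classed 170 as long noncoding RNA, 11 as protein coding and 1, LINC01296, as a transcribed pseudogene. A RefSeq promoter window, 250 bases before to 50 bases after a gene's start on GRCh38.p14, was at hand for 136. The windows of 4 members are printed to show the range among genes that changed, and they were chosen after the values were seen. LINC01315 was higher in both MEL-18 lines, LINC00654 was high in the MEL-18 WT libraries, LINC01582 was high in the MEL-18 T334A libraries, and LINC01207 was lower in both lines and lowest with MEL-18 T334A. They lie at chr22:42369159-42369458 (minus strand), chr20:5504547-5504846 (minus strand), chr15:98088704-98089003 (minus strand) and chr4:164753881-164754180 (plus strand). Capitals mark each CG dinucleotide, the site of DNA methylation, and sequences run 5′ to 3′.
LINC01315: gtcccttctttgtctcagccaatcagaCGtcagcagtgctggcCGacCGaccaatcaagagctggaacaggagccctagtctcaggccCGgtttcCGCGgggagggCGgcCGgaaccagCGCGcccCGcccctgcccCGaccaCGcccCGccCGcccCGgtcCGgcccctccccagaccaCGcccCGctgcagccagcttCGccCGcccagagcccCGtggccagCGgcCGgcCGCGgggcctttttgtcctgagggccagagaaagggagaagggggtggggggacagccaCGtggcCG
LINC00654: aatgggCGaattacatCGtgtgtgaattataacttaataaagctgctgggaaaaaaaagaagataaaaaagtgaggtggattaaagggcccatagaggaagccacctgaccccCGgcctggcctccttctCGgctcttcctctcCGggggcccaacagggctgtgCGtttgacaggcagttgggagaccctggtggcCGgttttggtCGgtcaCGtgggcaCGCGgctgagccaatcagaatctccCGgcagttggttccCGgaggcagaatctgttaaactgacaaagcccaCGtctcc
LINC01582: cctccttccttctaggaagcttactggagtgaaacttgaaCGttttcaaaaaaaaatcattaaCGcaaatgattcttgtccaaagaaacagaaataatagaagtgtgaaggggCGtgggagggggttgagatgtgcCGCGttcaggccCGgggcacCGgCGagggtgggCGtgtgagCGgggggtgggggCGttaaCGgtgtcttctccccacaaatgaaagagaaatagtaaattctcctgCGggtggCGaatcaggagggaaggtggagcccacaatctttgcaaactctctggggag
LINC01207: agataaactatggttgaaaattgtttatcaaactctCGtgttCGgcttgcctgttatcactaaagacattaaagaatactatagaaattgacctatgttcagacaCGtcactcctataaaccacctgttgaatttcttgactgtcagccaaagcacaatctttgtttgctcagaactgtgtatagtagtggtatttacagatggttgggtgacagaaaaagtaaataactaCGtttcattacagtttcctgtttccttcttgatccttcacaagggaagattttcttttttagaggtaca

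The window of LINC01315 held 28 CG dinucleotides, those of LINC00654 and LINC01582 held 14 each and that of LINC01207 held 4, against a median of 14 over the 35116 RefSeq windows and 11 over the 136 members with a window. A GC box, GGGCGG, was found once on the gene's strand and 4 times on the other in the LINC01315 window, and 45.0% of all windows hold it on either strand. The motif TATAAA was found once in the LINC01207 window and is held by 11.5% of all windows. CCAAT was found on the gene's strand 2 times in the LINC01315 window and 1 time in that of LINC00654, and 34.6% of all windows hold it. Both strands were searched, and a match to one motif may overlap a match to another. The members higher with MEL-18 WT than with the vector had a median of 10 CG dinucleotides over the 8 with a window, and those lower a median of 3 over 8. With MEL-18 T334A against the vector the medians were 7.5 over 16 higher members and 7 over 14 lower ones, and between the lines 10 over 21 and 8 over 17. Members called in no comparison had a median of 14 over 87. These medians are descriptions of few windows.

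The 184 genes were low as a class. Their median level was 1.23 CPM, against 24.5 CPM over the 14738 genes tested, and 79 had a mean under 1 CPM while 30 reached 10 CPM. They took 46232 to 52117 of the 31643722 to 37005302 counts of a library, or 1408 to 1466 CPM of the unscaled library, with no group apart from the others. LINC00657 alone supplied 25.4% to 27.0% of them. The libraries held 366 to 392 LINC symbols with a count. MEL-18 T334A replicate 1 had a count for 20323 genes and the other 8 libraries for 18956 to 19636, and without it 45 members in place of 50 were called with MEL-18 T334A against the vector, and 40 in place of 47 between the lines. Of the markers of the line, 8 of 8 were present, with VIM at 1447 to 1545 CPM as group means. Luminal markers listed beforehand as low or absent were mixed. The highest group mean was 0.0673 CPM for ESR1, 0.0310 for PGR and 0.144 for CDH1. The others were counted clearly, with group means of 63.8 to 69.9 CPM for ERBB2, 6.86 to 7.46 for GATA3 and 7.47 to 12.2 for EPCAM.

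With LINC00657 first at 379 CPM, the next levels were 94.8 CPM for LINC00261, 75.1 CPM for LINC00674 and 65.4 CPM for LINC01000. Scaled to exon length in GENCODE, which is not the annotation behind the counts, the order changed: LINC00674 came first at 102 CPM per kilobase, then LINC00657 at 70.9, LINC00704 at 26.3, LINC00493 at 19, LINC00261 at 17.1 and LINC00998 at 16.4 CPM per kilobase. The difference between LINC00674 and LINC00657 rests on the 734 exon bases listed for the former and the 5339 for the latter. Transcripts of 8 members, LINC00261, LINC00240, LINC00319, LINC01001, LINC01002, LINC01296, LINC01347 and LINC01410, match another gene at 97% identity or more over 50% of their length or more. Positions were not compared, so a match may be a separate copy or an overlapping entry at the same place. Reads of matching sequences can be split or lost, so the levels of these members are uncertain. LINC symbols with an antisense or overlapping neighbour are uncertain too, since the strand setting of the counting is not given in the sources used here.

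A gene was called when the adjusted p of edgeR's quasi-likelihood test, over all 14738 genes, was below 0.05. With MEL-18 WT, 30 of the 184 members (16.3%) were called against the vector, 14 higher and 16 lower, where 28.8% of all tested genes were called. With MEL-18 T334A, 50 members (27.2%) were called against the same vector libraries, 21 higher and 29 lower, where 45.9% of all genes were. Between MEL-18 T334A and MEL-18 WT, 47 members (25.5%) were called, 23 higher and 24 lower with T334A, where 40.9% of all genes were. The share of members called was below the share of all genes in each comparison. In all, 109 members were called in none of them, and the matching share over all genes was not computed. Replicates of the compared groups did not overlap for 32.6%, 34.8% and 37.5% of members, against 42.7%, 51.5% and 48.7% of all tested genes. Members with larger changes were named below partly for such lack of overlap, so it describes them and adds no support. In bulk RNA, fewer cells that express a gene and less RNA per cell cannot be told apart. Both lines were compared with the same 3 vector libraries, so values of the 2 comparisons are not independent.

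Counting noise was larger for these genes than for most. The median standard error of a member's log2 fold change was 0.19 in each comparison, against 0.05 over all genes tested. Of the 56 members with 1000 counts or more, 18 were called with MEL-18 WT against the vector, 21 with MEL-18 T334A against the vector and 26 between the lines. Of all tested genes, 28.8%, 45.9% and 40.9% were called. The share called among these 56 was thus near that of all genes with MEL-18 WT and between the lines. There it was above by a few genes only, which is no result about these members. With MEL-18 T334A it was below. Of the 49 members with 90 to 179 counts, with a median standard error of 0.34 in all 3 comparisons, 4, 9 and 7 were called. The members' median absolute log2 fold change was 0.22 in each comparison, against 0.10, 0.14 and 0.12 over all genes, and these medians include the noise of low counts. Members called with more than a 2-fold change numbered 8 with MEL-18 WT (1.76% of all genes were), 10 with MEL-18 T334A (2.71% of all genes) and 6 between the lines (1.68% of all genes). The median log2 fold change of the members was -0.05 with MEL-18 WT, -0.01 with MEL-18 T334A and 0.02 between the lines, and 0.00 over all genes after rounding.

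For 14 members the threshold of 90 counts was reached through their highest group, so a part of their difference follows from the way they were chosen. LINC00654, LINC00937, LINC00957, LINC00958, LINC00989, LINC01252 and LINC01470 are among them. LINC00958 and LINC00654 also passed the filter of the test through 1 group alone and had to differ. LINC00957, LINC00989 and LINC01252 needed their highest group to pass it, so tests against that group are not given. Without the 14, 25 of 170 members (14.7%) were called with MEL-18 WT, 45 (26.5%) with MEL-18 T334A and 44 (25.9%) between the lines. The number called with more than a 2-fold change was then 3, 6 and 3.

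**Figure D1:**
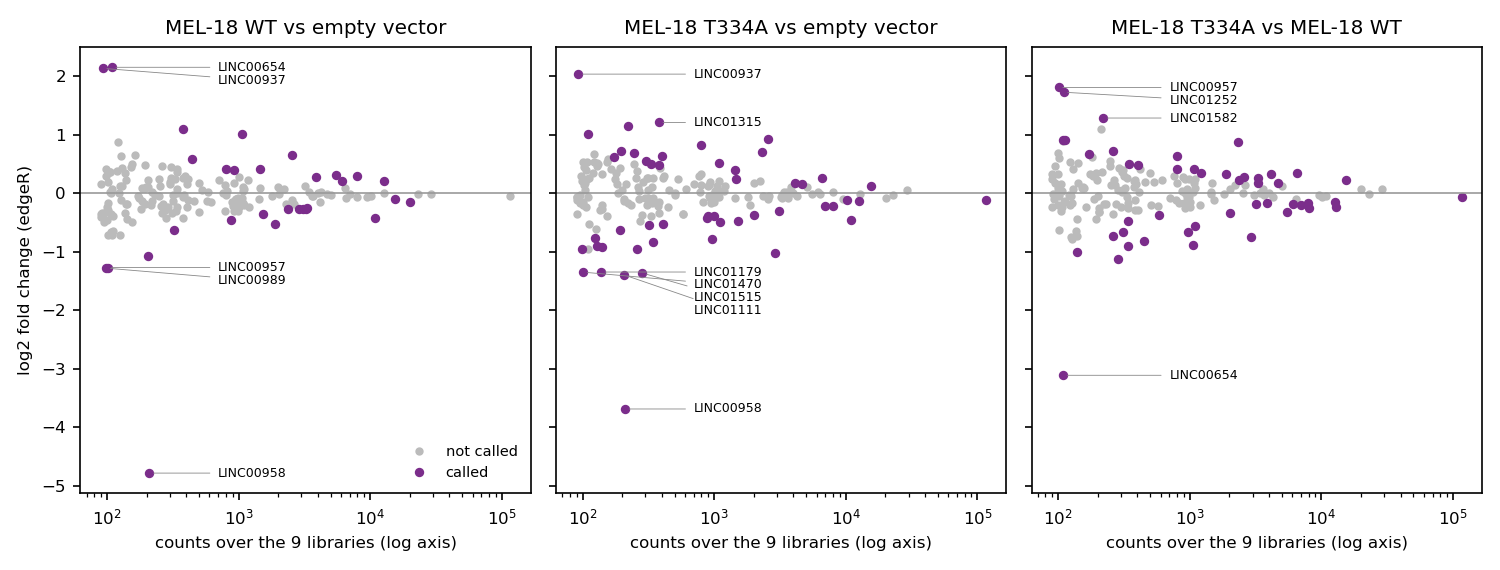
Log2 fold change of each of the 184 LINC genes (vertical axis) against its counts summed over the 9 libraries (horizontal log axis), in 1 panel per comparison, with called genes in purple and names for those past 1.2 on the log2 scale. The large changes lie among genes with few counts, led by LINC00958 at -4.79 and -3.69 against the vector, while the genes with the most counts stay within 0.5 of zero.

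LINC00958, a noncoding RNA studied in bladder and other cancers, showed the largest change among the members. It had 67, 64 and 57 counts in the vector libraries, 3, 1 and 3 with MEL-18 WT and 5, 3 and 7 with MEL-18 T334A. Every vector library stood far above every library of both MEL-18 lines. The summed counts, 188 against 7, put it 29.1-fold lower with MEL-18 WT, with an exact 95% binomial interval of 13.8 to 73.3 that covers counting error only. With MEL-18 T334A the sum of 15 counts was 13.2-fold lower than with the vector (7.81 to 24.1). The fitted log2 fold changes were -4.79 ± 0.32 (SE) and -3.69 ± 0.27. No test against the vector is given, since the gene passed the filter through the vector libraries alone and had to differ. Between the lines it did not pass the test (1.10 ± 0.59, adjusted p 0.144). Its nearest tested genes moved little: TEAD1, a transcription factor of the Hippo pathway, had log2 fold changes of -0.07 ± 0.03 with MEL-18 WT and -0.20 ± 0.03 with MEL-18 T334A, and ARNTL, a circadian clock factor, 0.08 ± 0.06 and 0.06 ± 0.06.

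LINC01111 was also lower in both lines, with 42, 35 and 31 counts with the vector, 21, 15 and 19 with MEL-18 WT and 7, 13 and 23 with MEL-18 T334A. The vector libraries did not overlap either line, while the T334A libraries spread more than 3-fold among themselves. Its log2 fold changes were -1.08 ± 0.26 (adjusted p 0.00208) and -1.40 ± 0.27 (adjusted p 0.000147). The nearest tested gene on one side, ZFHX4-AS1, had 28, 32 and 39 counts with the vector and a single count over the 6 other libraries.

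LINC00342, at a far higher level, had 41.2 to 44.7 CPM in the vector libraries, 31.8 to 32.9 with MEL-18 WT and 29.2 to 34.6 with MEL-18 T334A. No library of either line reached the vector range. Its log2 fold change was -0.42 ± 0.05 (adjusted p 1.46e-07) with MEL-18 WT and -0.47 ± 0.05 (adjusted p 1.42e-08) with MEL-18 T334A. A neighbour, ANKRD36C, was lower by a similar amount, at -0.63 and -0.66 on the log2 scale. Other members lower in both lines were weaker. LINC01355 had log2 fold changes of -0.46 ± 0.13 and -0.43 ± 0.13, and its call with MEL-18 WT was lost without MEL-18 WT replicate 3 (adjusted p 0.0585). LINC01085 had -0.63 ± 0.20 and -0.54 ± 0.20, and LINC00989, with 18, 20 and 12 counts against 8, 7 and 7 and against 12, 8 and 7, had -1.28 ± 0.34 and -0.95 ± 0.33. The MEL-18 WT call of LINC01085 was lost without vector replicate 3 (adjusted p 0.0663) or MEL-18 WT replicate 1 (0.0744) and with DESeq2 (0.0744). Its MEL-18 T334A call was lost without vector replicate 1 (0.0596) or 3 (0.0851) or without MEL-18 T334A replicate 2 (0.0517) or 3 (0.155) and with DESeq2 (0.0967). For LINC00989, the log2 fold change with MEL-18 T334A was -0.78 without MEL-18 T334A replicate 3. No test of LINC00989 against the vector is given, since it needed the vector libraries to pass the filter of the test.

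Among members higher in both lines, LINC00937 started from 3 counts in each vector library and reached 15, 15 and 14 with MEL-18 WT and 11, 18 and 11 with MEL-18 T334A. The summed counts gave a ratio of 4.52 with MEL-18 WT (exact 95% interval 2.18 to 10.5) and 4.22 with MEL-18 T334A (2.02 to 9.89). Its log2 fold changes were 2.13 ± 0.42 (adjusted p 0.000302) and 2.03 ± 0.43 (adjusted p 0.000348). LINC01315, whose CG-rich promoter window is printed above, had 19, 26 and 21 counts with the vector, 57, 52 and 44 with MEL-18 WT and 52, 47 and 62 with MEL-18 T334A. The 6 libraries of the lines all stood above the vector, and the lines overlapped each other. The log2 fold changes were 1.09 ± 0.20 (adjusted p 0.000138) and 1.21 ± 0.20 (adjusted p 1.76e-05).

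LINC01551 was better counted. It had 166, 204 and 174 counts with the vector, 276, 327 and 321 with MEL-18 WT and 341, 391 and 359 with MEL-18 T334A. Its level rose from 5.56 ± 0.50 CPM (SD, n = 3) with the vector to 8.75 ± 0.98 with MEL-18 WT and 10.6 ± 0.47 with MEL-18 T334A, and the 3 ranges did not overlap. Against the vector the log2 fold changes were 0.65 ± 0.09 (adjusted p 2.8e-06) and 0.93 ± 0.09 (adjusted p 2.06e-09). The difference between the lines, 0.28 ± 0.08 (adjusted p 0.00603), was lost without MEL-18 WT replicate 1 (adjusted p 0.0667).

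LINC00702 showed the same order at lower counts, with 46, 74 and 65 counts with the vector, 96, 91 and 81 with MEL-18 WT and 120, 108 and 118 with MEL-18 T334A. The call with MEL-18 T334A, 0.83 ± 0.14 (adjusted p 3.51e-05), held under every alternative run except the minimum change of 1.5-fold, which was not scored for single genes. The one with MEL-18 WT, 0.42 ± 0.15 (adjusted p 0.0391), was 0.25 without vector replicate 1 (adjusted p 0.262) and was lost without MEL-18 WT replicate 1 (0.124), 2 (0.0683) or 3 (0.0608), with DESeq2 (0.0943) and with the replicate block (0.0638). The difference between the lines, 0.41 ± 0.13 (adjusted p 0.0159), was lost without MEL-18 WT replicate 2 (0.0517) or 3 (0.0524) or MEL-18 T334A replicate 1 (0.0779) and with DESeq2 (0.052). LINC01139 had 143, 122 and 114 counts with the vector, 213, 171 and 160 with MEL-18 WT and 156, 165 and 204 with MEL-18 T334A, with log2 fold changes of 0.41 ± 0.12 and 0.39 ± 0.12. Without MEL-18 WT replicate 1 the MEL-18 WT call was lost (adjusted p 0.0953). RYR2, the calcium channel gene next to it, went from 9, 10 and 14 counts with the vector and 13, 20 and 16 with MEL-18 WT to 558, 639 and 571 with MEL-18 T334A, a rise that LINC01139 did not share in size.

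**Figure D2:**
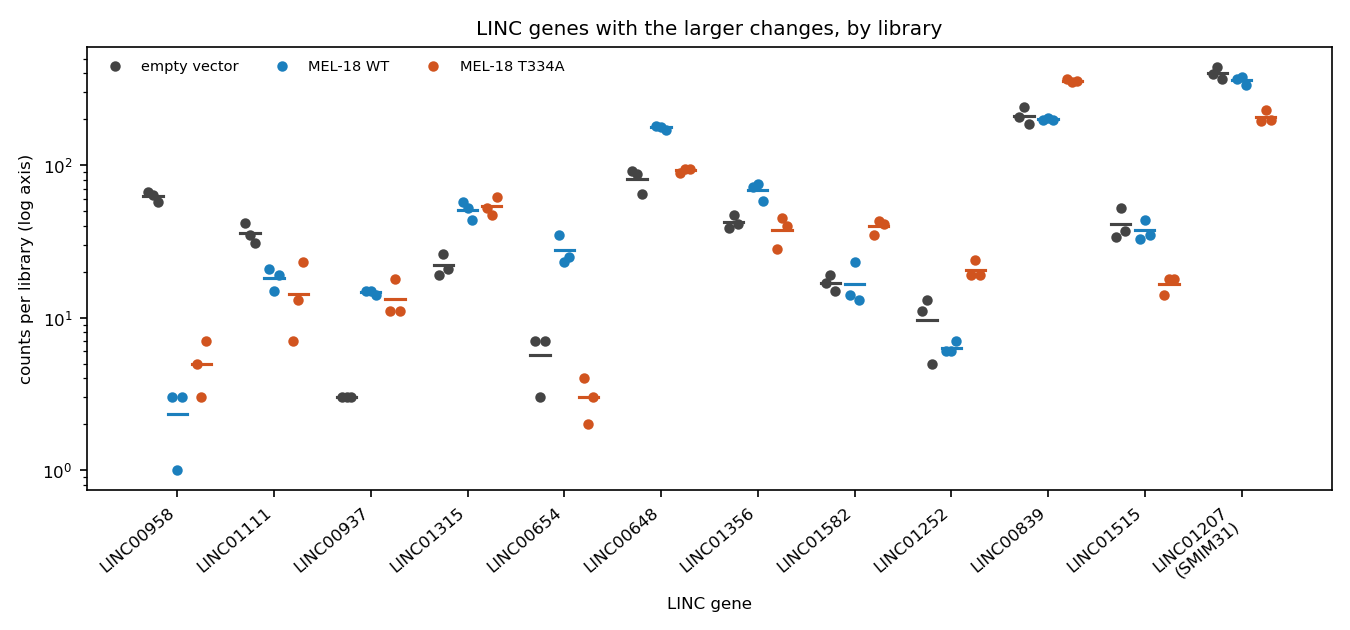
Counts per library (vertical log axis) of 12 LINC genes with the larger changes, 3 points per group, with a bar at the group mean. LINC00958 has 57 to 67 counts in the vector libraries and at most 7 in the others, LINC00654 stands high with MEL-18 WT at 23 to 35 counts, and LINC01207 is lowest with MEL-18 T334A at 196 to 229 counts.

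Several members were high with MEL-18 WT and near the vector level with MEL-18 T334A, and here the difference between the lines is given directly. LINC00654 had 7, 3 and 7 counts with the vector, 35, 23 and 25 with MEL-18 WT and 4, 2 and 3 with MEL-18 T334A. The MEL-18 WT libraries stood above all others. The summed 83 against 17 counts gave a ratio of 4.51 (exact 95% interval 2.65 to 8.11) over the vector, and the T334A sum of 9 counts was 8.98-fold below that of MEL-18 WT (4.51 to 20.3). The log2 fold changes were 2.15 ± 0.34 for MEL-18 WT against the vector and -3.11 ± 0.39 between the lines (MEL-18 T334A over MEL-18 WT). No test of these is given, since the gene passed the filter through the MEL-18 WT libraries alone and had to differ. MEL-18 T334A against the vector had -0.96 ± 0.57 (adjusted p 0.173).

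LINC00648 was about 2-fold higher with MEL-18 WT, with 92, 87 and 65 counts with the vector, 181, 178 and 171 with MEL-18 WT and 89, 95 and 95 with MEL-18 T334A. The MEL-18 WT libraries again stood apart, and the other 6 overlapped. It had a log2 fold change of 1.0 ± 0.11 (adjusted p 1.02e-07) for MEL-18 WT against the vector and -0.89 ± 0.11 (adjusted p 3.12e-07) between the lines. With MEL-18 T334A against the vector it was 0.12 ± 0.13 (adjusted p 0.478). The neighbouring MDGA2, a membrane protein gene, had 22, 23 and 20 counts with the vector and 52, 59 and 47 with MEL-18 WT, but 7, 1 and 2 with MEL-18 T334A, so it fell below the vector where LINC00648 did not. LINC01356 had 39, 47 and 41 counts with the vector, 72, 75 and 58 with MEL-18 WT and 28, 45 and 40 with MEL-18 T334A. Its log2 fold change was 0.58 ± 0.16 (adjusted p 0.00856; 0.0506 with DESeq2) for MEL-18 WT against the vector and -0.82 ± 0.17 (adjusted p 0.000293) between the lines.

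A pair of abundant members differed in the same direction by smaller amounts. LINC00472 had 23.6 to 24.4 CPM with the vector, 28.1 to 31.2 with MEL-18 WT and 24.4 to 24.7 with MEL-18 T334A. LINC00641 had 37.5 to 41.4, 44.7 to 47.0 and 38.5 to 39.7 CPM. For both, the MEL-18 WT libraries lay above the other 6. Their log2 fold changes for MEL-18 WT against the vector were 0.29 ± 0.05 (adjusted p 2.22e-05) and 0.21 ± 0.04 (adjusted p 0.00015), and between the lines -0.26 ± 0.05 (adjusted p 4.75e-05) and -0.23 ± 0.04 (adjusted p 3.87e-05).

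The reverse order, lowest with MEL-18 WT, was seen for LINC00957 and LINC00888. LINC00957 had 13, 9 and 12 counts with the vector, 3, 8 and 4 with MEL-18 WT and 16, 21 and 15 with MEL-18 T334A. The T334A libraries were the highest and the MEL-18 WT libraries the lowest. The difference between the lines was 1.81 ± 0.38 on the log2 scale. No test of it is given, since LINC00957 needed the MEL-18 T334A libraries to pass the filter of the test. The fall with MEL-18 WT against the vector, -1.27 ± 0.42 (adjusted p 0.0214), was lost without vector replicate 1 (adjusted p 0.0794) or 3 (0.0671) or MEL-18 WT replicate 1 (0.11) or 3 (0.0735) and with DESeq2 (0.0751). LINC00888, which RefSeq lists as the small nucleolar RNA host gene SNHG33, had 218, 258 and 228 counts with the vector, 186, 176 and 167 with MEL-18 WT and 217, 205 and 221 with MEL-18 T334A. It fell by 0.53 ± 0.09 on the log2 scale with MEL-18 WT (adjusted p 4.22e-05) and was 0.32 ± 0.09 higher with MEL-18 T334A than with MEL-18 WT (adjusted p 0.0056). With MEL-18 T334A against the vector its value of -0.21 ± 0.09 sat at the threshold (adjusted p 0.0509) and passed it without vector replicate 1 (0.0292) or MEL-18 T334A replicate 1 (0.0315).

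A further set of members was higher with MEL-18 T334A than with either the vector or MEL-18 WT. LINC00839, studied in cancers of the breast and elsewhere, had 206, 239 and 185 counts with the vector, 198, 205 and 197 with MEL-18 WT and 365, 353 and 358 with MEL-18 T334A. The vector and MEL-18 WT libraries overlapped, and the T334A libraries lay above both. Its log2 fold change was 0.70 ± 0.08 (adjusted p 7.27e-08) against the vector and 0.88 ± 0.08 (adjusted p 2.28e-09) against MEL-18 WT. CCNYL2, next to it, had values of 0.84 and 1.2 in these comparisons. LINC01582, whose promoter window is printed above, had 17, 19 and 15 counts with the vector, 14, 23 and 13 with MEL-18 WT and 35, 43 and 41 with MEL-18 T334A. It was 1.14 ± 0.23 higher on the log2 scale than with the vector (adjusted p 0.000165) and 1.28 ± 0.23 higher than with MEL-18 WT (adjusted p 5.26e-05). LINC01252 had 11, 13 and 5 counts with the vector, 6, 6 and 7 with MEL-18 WT and 19, 24 and 19 with MEL-18 T334A. With MEL-18 T334A it was 1.72 ± 0.34 higher on the log2 scale than with MEL-18 WT and 1.01 ± 0.31 higher than with the vector. The latter value was 0.74 without vector replicate 3. No test of these is given, since LINC01252 needed the MEL-18 T334A libraries to pass the filter of the test.

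LINC00923 had 18, 15 and 13 counts with the vector and 25, 26 and 29 with MEL-18 T334A (0.72 ± 0.24 on the log2 scale). Its summed MEL-18 WT counts lay nearer to the MEL-18 T334A sum than to the vector sum, so it is not one of the set above. LINC00482 had 14, 17 and 16 with the vector against 26, 27 and 23 with MEL-18 T334A (0.61 ± 0.25). The call of LINC00923 was lost without vector replicate 2 (adjusted p 0.0566) or 3 (0.064) or MEL-18 T334A replicate 3 (0.0505) and with DESeq2 (0.0899). That of LINC00482 was lost without any 1 of 7 libraries, among them vector replicate 1 (0.144) and MEL-18 T334A replicate 1 (0.125). It was also lost with DESeq2 (0.175), without a filter (0.0827), with the replicate block (0.0563), with the compared groups alone (0.0522) and with limma (0.0508). Between the lines, LINC00886 was higher with MEL-18 T334A by 0.63 ± 0.14 (adjusted p 0.000816), and its value of 0.32 ± 0.14 against the vector (adjusted p 0.0609) passed the threshold without vector replicate 3 (0.0298) or MEL-18 T334A replicate 3 (0.0114). LINC00184 and LINC00273 were each higher by 0.91 on the log2 scale with standard errors of 0.36 and 0.32, from sums of 25 and 26 counts with MEL-18 WT to 46 and 48 with MEL-18 T334A. LINC00184 lost the call without any 1 of 4 libraries and LINC00273 without any 1 of 3, with adjusted p up to 0.224 for LINC00184 (without MEL-18 T334A replicate 3) and up to 0.0982 for LINC00273 (without MEL-18 T334A replicate 2). Both calls were lost with DESeq2 (0.137 and 0.115), and that of LINC00184 without a filter (0.0542) and with the replicate block (0.0518).

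Among members lower with MEL-18 T334A, LINC01515 had 34, 52 and 37 counts with the vector, 33, 44 and 35 with MEL-18 WT and 14, 18 and 18 with MEL-18 T334A. The T334A libraries lay below the other 6, which overlapped. Its log2 fold changes were -1.37 ± 0.23 against the vector (adjusted p 2.37e-05) and -1.12 ± 0.24 against MEL-18 WT (adjusted p 0.000432). DNAJC12, a co-chaperone gene next to it, had 37, 32 and 44, then 37, 42 and 49, then 13, 17 and 11 counts in the same order of groups. LINC00824 had 37, 52 and 36 counts with the vector, 47, 50 and 45 with MEL-18 WT and 15, 28 and 31 with MEL-18 T334A, and its values were -0.83 ± 0.22 and -0.90 ± 0.21 on the log2 scale (adjusted p 0.003 and 0.00136).

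LINC01179, LINC01204 and LINC01470 were lower with MEL-18 T334A than with the vector as well. LINC01179 had 17, 25 and 19 counts with the vector and 8, 7 and 10 with MEL-18 T334A (-1.35 ± 0.32 on the log2 scale, adjusted p 0.00124). LINC01204 had 35, 34 and 36 against 20, 15 and 22 (-0.95 ± 0.22, adjusted p 0.000991). LINC01470 had 14, 24 and 11 against 7, 7 and 6 (-1.35 ± 0.36). The call of LINC01470 was lost without vector replicate 2 (adjusted p 0.0562). Against MEL-18 WT, LINC01179 was at -1.01 ± 0.34 and LINC01204 at -0.72 ± 0.23. Those 2 calls were lost without MEL-18 T334A replicate 2 (adjusted p 0.0813 and 0.0852), the former also without MEL-18 WT replicate 2 (0.124) and the latter without MEL-18 WT replicate 1 (0.0523), and both were lost with DESeq2 (0.0684 and 0.059). LOC101928131, next to LINC01179, went from 61, 69 and 52 counts with the vector to 14, 25 and 26 with MEL-18 T334A.

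The 12 members with the highest level changed by less than 0.5 on the log2 scale in every comparison. LINC00657 (NORAD), an abundant cytoplasmic RNA that binds Pumilio proteins and is known for its part in keeping chromosomes stable, had 393 to 396 CPM with the vector, 376 to 385 with MEL-18 WT and 357 to 369 with MEL-18 T334A. The 3 ranges did not overlap. Its log2 fold change was -0.06 ± 0.03 with MEL-18 WT (adjusted p 0.128), -0.12 ± 0.03 with MEL-18 T334A (adjusted p 0.000476) and -0.07 ± 0.03 between the lines (adjusted p 0.046). This last call was lost in 8 of the 9 fits without 1 library, with adjusted p up to 0.2 without MEL-18 WT replicate 3. It was also lost with library totals alone (0.134), RLE factors (0.0511), no filter (0.0625), the replicate block (0.0628) and the compared groups alone (0.0789). LINC00704 (MANCR), a mitosis-associated RNA, was the one member called in opposite directions against the vector. It had 48.5 to 52.1 CPM with the vector, 46.4 to 47.7 with MEL-18 WT and 54.2 to 54.8 with MEL-18 T334A. The rise with MEL-18 T334A, 0.12 ± 0.04 (adjusted p 0.00697), and the difference between the lines, 0.22 ± 0.04 (adjusted p 1.56e-05), held under every alternative run scored for single genes. Both lie below the minimum change of 1.5-fold, a run that was not scored for single genes. The fall with MEL-18 WT, -0.10 ± 0.04 (adjusted p 0.0366), was lost without vector replicate 1 (adjusted p 0.207) or 2 (0.0845) or MEL-18 WT replicate 2 (0.122) or 3 (0.125), and with library totals alone (0.0976), DESeq2 (0.0918) or no filter (0.0783).

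LINC00152 (CYTOR) had a mean of 42.5 CPM with the vector, 42.6 with MEL-18 WT and 38.6 with MEL-18 T334A. It was lower with MEL-18 T334A than with the vector by 0.14 ± 0.04 on the log2 scale (adjusted p 0.00665), a call lost without MEL-18 T334A replicate 2 (adjusted p 0.0502). LINC01234 had 27.7, 26.4 and 23.6 CPM and a log2 fold change of -0.23 ± 0.05 with MEL-18 T334A against the vector (adjusted p 0.000981). The difference between the lines, -0.16 ± 0.05, was lost without MEL-18 WT replicate 3 (adjusted p 0.111) or MEL-18 T334A replicate 2 (0.135). LINC01578 (CHASERR), which is known to act on its neighbour CHD2, had 34.4, 33.1 and 31.7 CPM and -0.12 ± 0.04 with MEL-18 T334A against the vector (adjusted p 0.0289). That call was lost without vector replicate 1 (adjusted p 0.165) or 3 (0.0857) or MEL-18 T334A replicate 1 (0.145), with DESeq2 (0.0781) and with library totals alone (0.148). LINC01000 was lower with MEL-18 WT by 0.16 ± 0.04 (adjusted p 0.0021), with 69.2, 62.0 and 65.1 CPM. Its value with MEL-18 T334A against the vector, -0.09 ± 0.04, passed the threshold without vector replicate 1 (adjusted p 0.0161) or MEL-18 T334A replicate 1 (0.0296), and its difference between the lines, 0.07 ± 0.04, without MEL-18 T334A replicate 3 (0.0181). LINC00674 was called in no comparison, at 75.8, 75.3 and 74.2 CPM. LINC00261, which lies near FOXA2 and is known from endoderm, had 93.8, 92.7 and 97.8 CPM and no call. Its difference between the lines, 0.08 ± 0.04 (adjusted p 0.0962), and that of MEL-18 T334A from the vector, 0.06 ± 0.04 (adjusted p 0.194), passed the threshold without MEL-18 T334A replicate 3 (0.0131 and 0.0296) and with library totals alone (0.0496 and 0.0396).

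**Figure D3:**
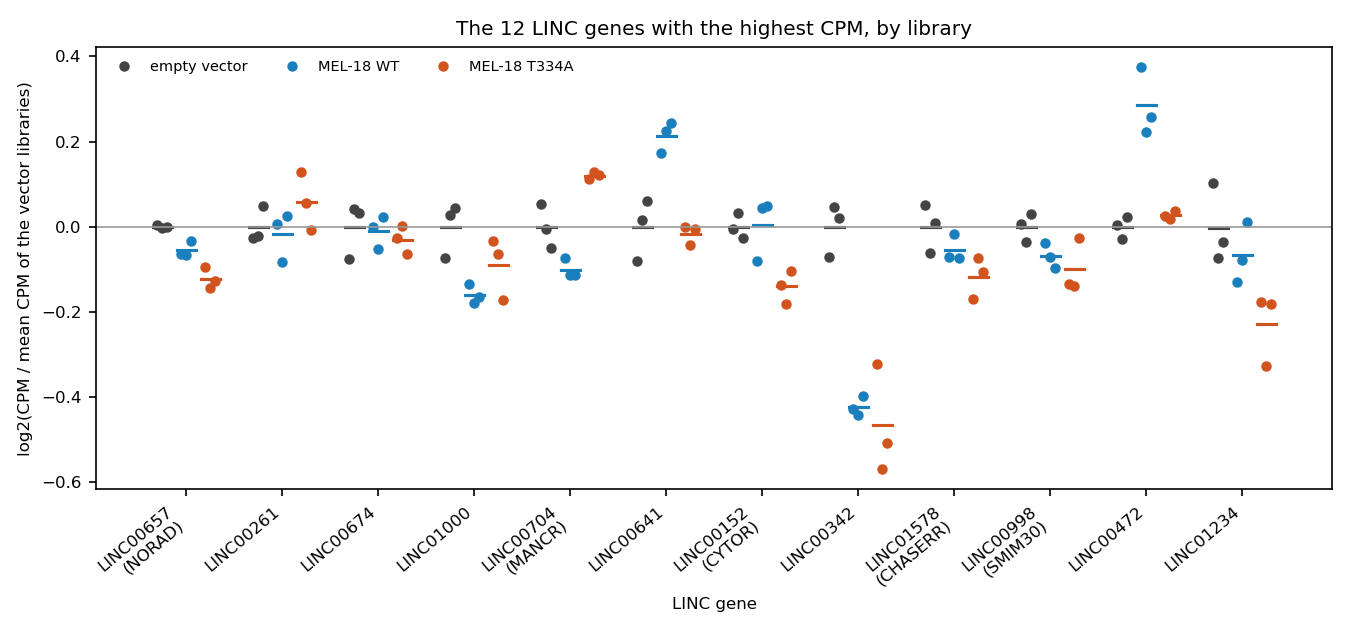
Log2 ratio of each library's CPM to the mean CPM of the vector libraries (vertical axis) for the 12 LINC genes with the highest level, 3 points per group, with a bar at the mean of the points. LINC00342 lies below the vector in both MEL-18 lines, LINC00472 and LINC00641 lie above it with MEL-18 WT, and LINC00704 lies on opposite sides in the lines.

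RefSeq lists 11 members as protein coding, so the class does not hold noncoding RNAs alone. With MEL-18 WT 1 of the 11 was lower and none was higher, with MEL-18 T334A 2 were higher and 1 lower, and between the lines 1 was higher and 2 were lower. Over all tested genes 28.8%, 45.9% and 40.9% were called in the same comparisons. The median log2 fold changes of the 11 were -0.07, 0.02 and 0.00 after rounding. LINC01207 (SMIM31), a small membrane protein gene, moved most. It had 397, 439 and 367 counts with the vector, 366, 378 and 333 with MEL-18 WT and 196, 229 and 197 with MEL-18 T334A. In CPM the 3 groups did not overlap, with means of 12.3 ± 0.70, 10.2 ± 0.13 and 6.04 ± 0.46 (SD, n = 3). The log2 fold changes were -0.27 ± 0.07 with MEL-18 WT (adjusted p 0.00277), -1.03 ± 0.07 with MEL-18 T334A (adjusted p 1.6e-11) and -0.75 ± 0.08 between the lines (adjusted p 1.25e-08).

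LINC00094 (BRD3OS) had 20.4 ± 0.14 CPM with the vector, 19.2 ± 0.31 with MEL-18 WT and 24.5 ± 0.86 with MEL-18 T334A, and rose by 0.26 ± 0.05 on the log2 scale against the vector (adjusted p 4.49e-05) and by 0.35 ± 0.05 against MEL-18 WT (adjusted p 1.13e-06). LINC01420 (NBDY), which encodes a small protein that binds the mRNA decapping machinery, had 10.2, 11.2 and 9.81 CPM. It was lower with MEL-18 T334A than with MEL-18 WT by 0.19 ± 0.06 (adjusted p 0.0198), a call lost without MEL-18 WT replicate 1 (adjusted p 0.0581) or MEL-18 T334A replicate 3 (0.0987) and with DESeq2 (0.0798). LINC00854 (CCDC200) was higher with MEL-18 T334A than with the vector by 0.50 ± 0.20 (adjusted p 0.0431) from 30, 31 and 27 to 45, 49 and 37 counts. Leaving out any 1 library of either group except MEL-18 T334A replicate 3 ended that call, with adjusted p from 0.079 to 0.136. It was also lost with DESeq2 (0.135), limma (0.058) and no filter (0.0511).

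The other 7 were called in no comparison. LINC00116 (MTLN), which encodes the mitochondrial protein mitoregulin, had 11.0, 11.1 and 11.1 CPM, LINC00493 (SMIM26) 20.5, 21.8 and 20.4 CPM, and LINC00998 (SMIM30) 32.2, 30.7 and 30.1 CPM. LINC00493 with MEL-18 WT passed the threshold without vector replicate 1 (adjusted p 0.0422). LINC00998 with MEL-18 T334A did so without MEL-18 T334A replicate 3 (0.0177). LINC00176, LINC01125, LINC00672 and LINC01314 had 283, 199, 183 and 108 counts over the 9 libraries. Of these, LINC01314 had 26, 12 and 11 counts with MEL-18 T334A, so 1 library stood apart. Its difference from MEL-18 WT, 0.89 ± 0.39, had an adjusted p of 0.0731, and of 0.0498 and 0.0181 without MEL-18 T334A replicates 2 and 3.

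**Figure D4:**
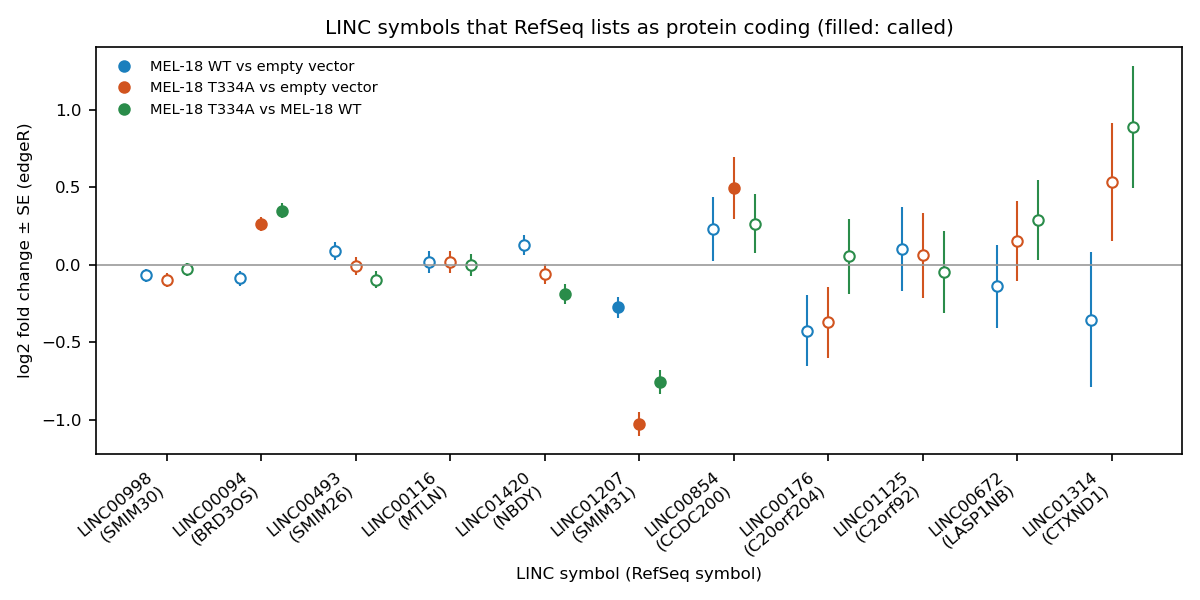
Log2 fold change with its standard error (vertical axis) in the 3 comparisons for the 11 LINC symbols that RefSeq lists as protein coding, in order of level, with filled points for calls. LINC01207 (SMIM31) falls in all 3 comparisons, to -1.03 with MEL-18 T334A against the vector, and LINC00094 (BRD3OS) is higher with MEL-18 T334A.

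Of 27 LINC genes listed as studied in cancer, 18 were members. With MEL-18 WT 2 of them were higher and 3 lower than with the vector, with MEL-18 T334A 2 higher and 5 lower, and between the lines 5 higher and 6 lower. The shares called among all tested genes were 28.8%, 45.9% and 40.9%. The median log2 fold changes of the 18 were -0.04, -0.02 and 0.12. LINC00958 was lowest of the list against the vector in both lines, LINC00839 was highest with MEL-18 T334A, and LINC00152, LINC00657 and LINC00472 have been described. Of 35 long noncoding RNAs that have other names, 29 were tested. With MEL-18 WT 1 was higher and 7 were lower, with MEL-18 T334A 3 were higher and 16 lower, and between the lines 2 were higher and 13 lower. Among all tested genes 14.4%, 23.4% and 21.0% were called higher and 14.4%, 22.5% and 20% lower. The medians of the 29 were -0.04, -0.18 and -0.11. UCA1, a noncoding RNA named after urothelial cancer, had 79, 87 and 47 counts with the vector, 3, 1 and 2 with MEL-18 WT and 4, 2 and 5 with MEL-18 T334A, so that each vector library stood above all others, as for LINC00958. MALAT1, an abundant nuclear RNA, had log2 fold changes of -0.15 ± 0.04, -0.41 ± 0.04 and -0.26 ± 0.04, all called.

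Neighbouring genes on the chromosome, in the order of the RefSeq table, sometimes moved with a member and often did not. The nearest tested gene was called in the same direction for 6 of the 30 members called with MEL-18 WT (20%), 20 of 50 with MEL-18 T334A (40%) and 19 of 47 between the lines (40.4%). Over all called genes the share was 28.7%, 35.1% and 35.4%. These are descriptions, and the sources used here do not say whether reads of overlapping genes were kept apart. DNAJC12 beside LINC01515, CCNYL2 beside LINC00839, LOC101928131 beside LINC01179 and ANKRD36C beside LINC00342 moved in the same direction as the member. TEAD1 and ARNTL beside LINC00958, CDS2 and GPCPD1 beside LINC00654, and ARRDC4 and IRAIN beside LINC01582 did not share the member's fold change. For LINC00654, CDS2 had log2 fold changes of -0.09 and GPCPD1 of 0.18 with MEL-18 WT, where the member itself had 2.15. For LINC01582, ARRDC4 had -0.21 and IRAIN 0.02 with MEL-18 T334A, where the member had 1.14.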

How the data were processed

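Poly(A) RNA of 3 cultures per group was sequenced from TruSeq stranded libraries, per the labels' protocols. The authors deposited raw read counts per gene symbol. The submitters' processing notes name CASAVA 1.8, STAR 2.5.3a, featureCounts, Subread 1.5.3 and hg19. The sources used here do not give the annotation, strand setting and treatment of multimapping reads. The 9 libraries held 31643722 to 37005302 counts.

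All genes were filtered with filterByExpr (14738 of 26364 kept), scaled with TMM and fitted with edgeR 4.0.16 (quasi-likelihood test, 1 mean per group, 2-sided, Benjamini-Hochberg adjustment over the genes tested). Standard errors were derived from the F statistic, as the log2 fold change divided by its root. Intervals of count ratios are exact 95% binomial intervals and cover counting error only. Scripts were tested on simulated data. Alternatives used DESeq2 1.42.0, limma 3.58.1, other scalings, filters and samples, a replicate block and a minimum change. BLAST 2.17.0 searched GENCODE transcripts of 170 members for copies.

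Members were named by rule: the 12 highest in CPM, up to 8 called members per direction and comparison whose replicates did not overlap, those called in opposite directions against the vector, those listed as protein coding, those with 3 counts or fewer in a group (none), and those nearest the 90-count threshold, 53 in all. The members and lists were chosen with earlier results of these data known. The motifs, the limits for copies, the genes plotted by library and the neighbour counts were chosen after the values were seen.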

Additional observations from a re-analysis of the deposited data

Results flagged for a closer look

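A pair of LINC symbols under the 90-count threshold, outside the genes described, had nearly all of their counts in 1 group. LINC00993 had 25, 17 and 17 counts with MEL-18 WT, a sum of 59, against 1, 2 and 0 with the vector and 0, 0 and 2 with MEL-18 T334A. LINC01203 had 13, 13 and 12 counts with MEL-18 T334A, a sum of 38, against 0 in each vector library and a single count with MEL-18 WT. Each passed the filter on low counts through its high group alone and so had to differ, and no test is given. The limit of 20 counts in the high group was set after the values were seen. No explanation of either was tested.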

How the results depend on the processing

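The number of members called kept within 1.5 times of the value reported under each alternative run, with these exceptions. With a minimum change of 1.5-fold, 4 members were called with MEL-18 WT against the vector, 7 with MEL-18 T334A against the vector and 5 between the lines. With DESeq2, 32 were called with MEL-18 T334A against the vector and 30 between the lines. Leaving out 1 library gave 26 to 32, 37 to 50 and 36 to 46. Single values of named members were not scored with the minimum change of 1.5-fold, so the counts that follow leave that run out. Of the 77 called values of named members, 51 kept call and direction under every other alternative run. The remaining 26 lost the call under at least 1, of which 19 under DESeq2. None of the 77 changed sign while called, 9 uncalled values passed the threshold under at least 1 alternative, and of the 73 values called under no setting 28 changed sign. With library totals in place of TMM, the split with MEL-18 T334A against the vector was 25 higher and 25 lower. Low counts limit precision: a member with 90 to 179 counts has a median standard error of 0.34, so a change under about 2-fold is often not detectable at this depth.

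The replicate number as a block gave 29, 46 and 41 called members in place of 30, 50 and 47. The numbers do not pair the samples: the labels tie them to nothing shared, and libraries with the same number had correlations of their deviations from the group means of -0.0791 to 0.0137. Not every library correlated best with its own number.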

Other observations

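Of the 12 LINC symbols under the threshold that had enough counts to be tested, LINC01163 had 18, 19 and 14 counts with the vector, 2, 3 and 0 with MEL-18 WT and 0, 1 and 3 with MEL-18 T334A. LINC00540 had 0, 2 and 3 counts with the vector, 18, 18 and 12 with MEL-18 WT and 3, 0 and 3 with MEL-18 T334A. LINC00871 had 15, 14 and 11 counts with the vector, 5, 8 and 8 with MEL-18 WT and 7, 5 and 8 with MEL-18 T334A. All 3 passed the filter on low counts through their high group alone and so had to differ, and no test is given. They were chosen after their values were seen.

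Of the 10 members that RefSeq now names as antisense or divergent transcripts of another gene, LINC01057 (SLC44A3-AS1) and its partner SLC44A3 were both higher with MEL-18 T334A than with the vector, by 0.48 ± 0.19 and 0.75 ± 0.10 on the log2 scale (edgeR adjusted p 0.0351 for the member). LINC00337 (ICMT-DT) was higher with MEL-18 T334A than with MEL-18 WT by 0.50 ± 0.20 (edgeR adjusted p 0.0452), where ICMT had -0.01 ± 0.03. The remaining 8 members had no call. Of all tested genes, 28.8% were called with MEL-18 WT, 45.9% with MEL-18 T334A and 40.9% between the lines. This pair was chosen after the values were seen, and reads of a gene and its antisense partner cannot be told apart where strand was not used in the counting.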
